A study of Nothobranchius furzeri with 19 samples.

Results

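The trunks of female *Nothobranchius furzeri* at 3 days post hatching (dph) were compared with the trunks of females at hatching (0 dph). The study describes 0 dph as a stage ready to hatch, which embryos can hold for weeks. The labels give no days since fertilization for either age, so the time between them is not known. The libraries were chosen by their titles, sex, tissue and age. They were 3 female trunk libraries at 3 dph and 2 at 0 dph, 5 of the 19 libraries of the series. All come from the short-lived wild-type strain GRZ, with no allele or treatment named for any of them, and 3 male trunk libraries at each age are given beside them. The labels do not say whether the libraries come from separate animals or pools, so that p-values measure the spread between these libraries, which may be in part technical. A trunk holds muscle, skin, skeleton, spinal cord, liver, gut and gonad together, and in such bulk RNA fewer cells of a type and less RNA per cell cannot be told apart.

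Hatching ends the life of the killifish embryo inside the egg shell, and the larva then swims, uses up its yolk and begins to feed. In teleost larvae the fin folds, the blood and the digestive organs are remodelled after hatching, and the germ cells of a young ovary multiply and enter meiosis to become oocytes. Oocytes store large amounts of RNA and of the proteins that bind it.

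The female libraries held 28713163 to 29823598 counts at 3 dph, against 17489032 and 20218857 counts at 0 dph. The 10 most abundant genes took 20.4% to 24.2% of a 3 dph library, against 12.3% and 12.8% of a 0 dph library. Genes of trunk tissues were detected, and the liver protein gene *fabp10a*, the smooth muscle gene *acta2* and the troponin gene *tnnc1b* had over 1000 normalised counts in every female library. Other trunk markers were lower, among them *myha* of muscle (421 to 1167 counts), *cdh17* (127 to 1276) and *MEP1B* (28.8 to 295) of gut and *rec8* of germ cells (93.5 to 339). Of 30 retina and lens IDs, taken as markers of a head, *rho* (3 IDs), *gnat1*, *arr3a*, *opn1mw2* and *cryba1a* had at most 1.69 normalised counts in any of the 5 libraries. Other members of that list were detected, among them *rpe65c* and the photoreceptor genes *AIPL1* and *cngb1a*, and the list summed to 342 to 394 counts at 3 dph, against 382 and 384 at 0 dph. Normalised counts are counts divided by the median-of-ratios size factor of the library. The 2 libraries at 0 dph stood further apart than any pair at 3 dph. Between them, 2447 of 21242 genes (11.5%) were at least 2-fold apart, against 2.84% to 6.33% of genes between the 3 dph pairs (for male pairs the range was 6.36% to 9.86% at 3 dph and 7.79% to 14.3% at 0 dph). The first principal component of the 5 libraries (80.3% of the variance of the 500 most variable genes) placed the 3 dph libraries from 35.6 upwards, replicate 1 at 0 dph at −26.5 and replicate 2 at −85.2.

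Of 22452 genes tested, 8549 (38.1%) differed between 3 and 0 dph (DESeq2, Benjamini-Hochberg adjusted p < 0.05), with 4579 (20.4%) higher and 3970 (17.7%) lower at 3 dph. The call threshold is used in this sense below, and a log2 fold change is given with its standard error as 3 dph over 0 dph. The median log2 fold change was 1.01 over the genes that rose and −1.19 over the genes that fell, against 0.02 over all genes tested. At least 8-fold differences were found for 293 genes that rose and 191 that fell. The 3 and 0 dph libraries did not overlap for 99.4% of called genes and for 65.2% of all genes tested (33.9% with all 3 dph libraries above and 31.3% with all below the 0 dph libraries). When libraries were scaled by their total counts instead, the median of all genes moved to −0.23 and the split to 2864 higher and 5738 lower genes, or 33.3% higher in place of 53.6%. Without replicate 1 at 0 dph, 5452 genes were called (3147 higher, 2305 lower) and 5050 of these were shared with the full comparison.

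The named genes with the largest increases included a globin, a sterol enzyme, a fin fold protein and a relative of a chemokine-like protein. *hbbe1.1* (Nfu_g_1_007507), an embryonic beta globin, had 20877, 14403 and 11247 normalised counts at 3 dph, against 478 and 967 at 0 dph. Every 3 dph library was far above both 0 dph libraries (log2 fold change 4.42 ± 0.49, adjusted p = 5.61e-17). Leaving out 1 female library gave 4.01 to 5.02, highest without replicate 2 at 0 dph. *fdps* (Nfu_g_1_001062), the farnesyl diphosphate synthase of the sterol pathway, had 3045, 2484 and 3250 counts at 3 dph, against 121 and 284 at 0 dph. The spread within each age was small beside this difference (3.85 ± 0.32, adjusted p = 3.18e-31). Leaving out 1 female library gave 3.37 to 4.60, highest without replicate 2 at 0 dph. *and3* (Nfu_g_1_004360), an actinodin of the fin fold rods of fish, had 5396, 4803 and 2477 counts at 3 dph, against 343 and 354 at 0 dph (3.60 ± 0.96, adjusted p = 0.00102). The lowest 3 dph value came from replicate 3 and was still far above both 0 dph values.

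*lect2l* (Nfu_g_1_000910), related to a chemokine-like protein made in liver, had 3284, 3142 and 5520 counts at 3 dph, against 188 and 515 at 0 dph (3.50 ± 0.45, adjusted p = 3.53e-13). Leaving out 1 female library gave 2.95 to 4.40, highest without replicate 2 at 0 dph. *steap4* (Nfu_g_1_001285), a metalloreductase, had 2311, 472 and 533 counts at 3 dph, against 80.8 and 61.0 at 0 dph. Replicate 1 at 3 dph alone was high, and without it the log2 fold change was 2.83 rather than 3.96 (adjusted p = 2.84e-11 with all libraries). *MFAP4* (Nfu_g_1_000973, 8 of 13), 1 of 13 gene copies given the name of a microfibril-associated glycoprotein, had 561, 123 and 324 counts at 3 dph, against 1.11 and 8.41 at 0 dph. Its 0 dph level rests on 1 and 8 raw counts, and leaving out single libraries moved its log2 fold change of 6.13 ± 1.04 to between 5.32 and 8.25 (adjusted p = 8.99e-08). The splicing factor gene *zranb2* (3.59 ± 0.42) and the brush border metalloprotease gene *MEP1B* (1 of 2; 2.82 ± 0.47) also rose. The naming rule took the genes with the largest changes only where the ages did not overlap.

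**Figure D1:**
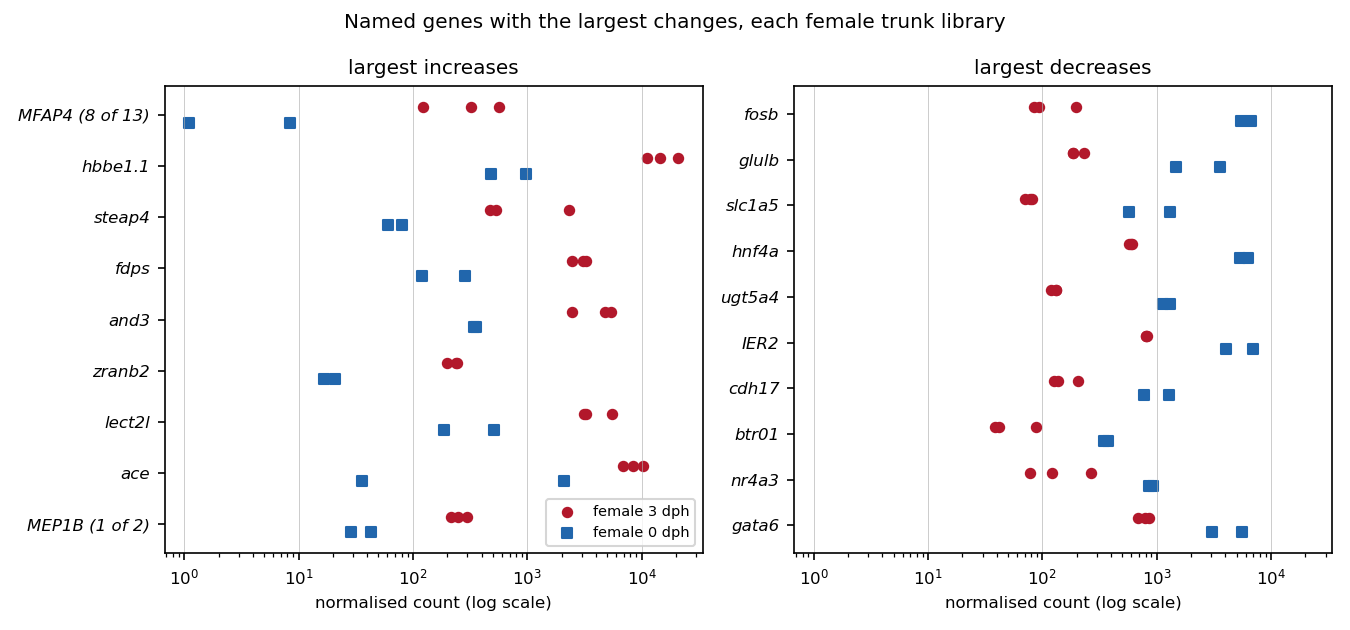
Normalised counts (log scale) of 9 of the 10 named genes with the largest increase (left) and the 10 with the largest decrease (right) in each female trunk library, 3 dph as circles above 0 dph as squares. For each gene the 3 dph and 0 dph libraries do not overlap, as the naming rule required, and *ace* has the widest gap between its 0 dph libraries.

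The 10 named genes with the largest decreases were headed by the immediate early gene *fosb* and included the transcription factor genes *hnf4a* and *gata6*. *fosb* (Nfu_g_1_000355), a subunit of the AP-1 transcription factor that cells induce within minutes of a stimulus, had 94.1, 85.0 and 196 counts at 3 dph, against 5421 and 6733 at 0 dph (−5.61 ± 0.42, adjusted p = 1.58e-37). No 3 dph library came near either 0 dph library. *hnf4a* (Nfu_g_1_001809), a nuclear receptor of liver and gut cells, had 575, 611 and 599 counts at 3 dph, against 5320 and 6347 at 0 dph (−3.29 ± 0.27, adjusted p = 8.46e-32). *gata6* (Nfu_g_1_020511), an endoderm and heart transcription factor, had 692, 851 and 787 counts at 3 dph, against 3061 and 5534 at 0 dph (−2.47 ± 0.31, adjusted p = 1.84e-13). For both of these factors the 3 dph libraries lay close together and well below the 0 dph pair.

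Among these 10 genes *glulb* and *slc1a5* came next after *fosb* in the size of the decrease. *glulb* (Nfu_g_1_000830), a glutamine synthetase, had 186, 186 and 234 counts at 3 dph, against 1491 and 3575 at 0 dph (−3.65 ± 0.78, adjusted p = 3.29e-05, and −2.88 without replicate 2 at 0 dph). *slc1a5* (Nfu_g_1_000696), a transporter of glutamine and other neutral amino acids, had 81.4, 69.9 and 77.6 counts at 3 dph, against 1318 and 571 at 0 dph (−3.63 ± 0.49, adjusted p = 9.03e-12, and −2.90 without replicate 1 at 0 dph). The 0 dph pair thus differed more than 2-fold for each gene, in opposite order, and the 3 dph libraries hardly at all. The glucuronosyltransferase gene *ugt5a4* (−3.27 ± 0.50), the intestinal cadherin gene *cdh17* (−2.72 ± 0.46) and *btr01* (−2.69 ± 0.40), of a fish family of TRIM proteins, completed the set beside *IER2* and *nr4a3*, described with the immediate early genes.

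Among all gene IDs, with or without a name, 4 IDs had the largest changes. Nfu_g_1_015232 had 706, 504 and 1160 counts at 3 dph, against 1.11 and 4.21 at 0 dph (8.20 ± 0.77). Leaving out 1 female library gave 7.56 to 9.48, highest without replicate 2 at 0 dph. Nfu_g_1_013138 had 5825, 6258 and 6489 counts at 3 dph, against 17.7 and 26.3 at 0 dph (8.13 ± 0.43, adjusted p = 7.97e-75). Nfu_g_1_002256 had 12.7, 12.0 and 17.6 counts at 3 dph, against 2077 and 2023 at 0 dph (−7.19 ± 0.50, adjusted p = 1.03e-42). In these 3 genes the lowest library of one age was far above the highest of the other. Nfu_g_1_008905 fell as well, and its 0 dph pair was unequal, with 6.78, 2.26 and 10.6 counts at 3 dph, against 741 and 159 at 0 dph (−6.12 ± 0.62, and −4.63 without replicate 1 at 0 dph). The most abundant gene of the 3 dph trunks, Nfu_g_1_007612, took 7.52%, 6.60% and 6.99% of the 3 dph counts, against 0.902% and 1.38% of the 0 dph counts (2.87 ± 0.27, adjusted p = 2.20e-23).

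The changes were then read through gene lists. Over the 2180 tested genes with a gene name, 38.3% were called, with 17.1% higher and 21.1% lower at 3 dph, beside the 20.4% and 17.7% of all genes tested, and the counts of each list are to be read against these shares.

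**Figure D2:**
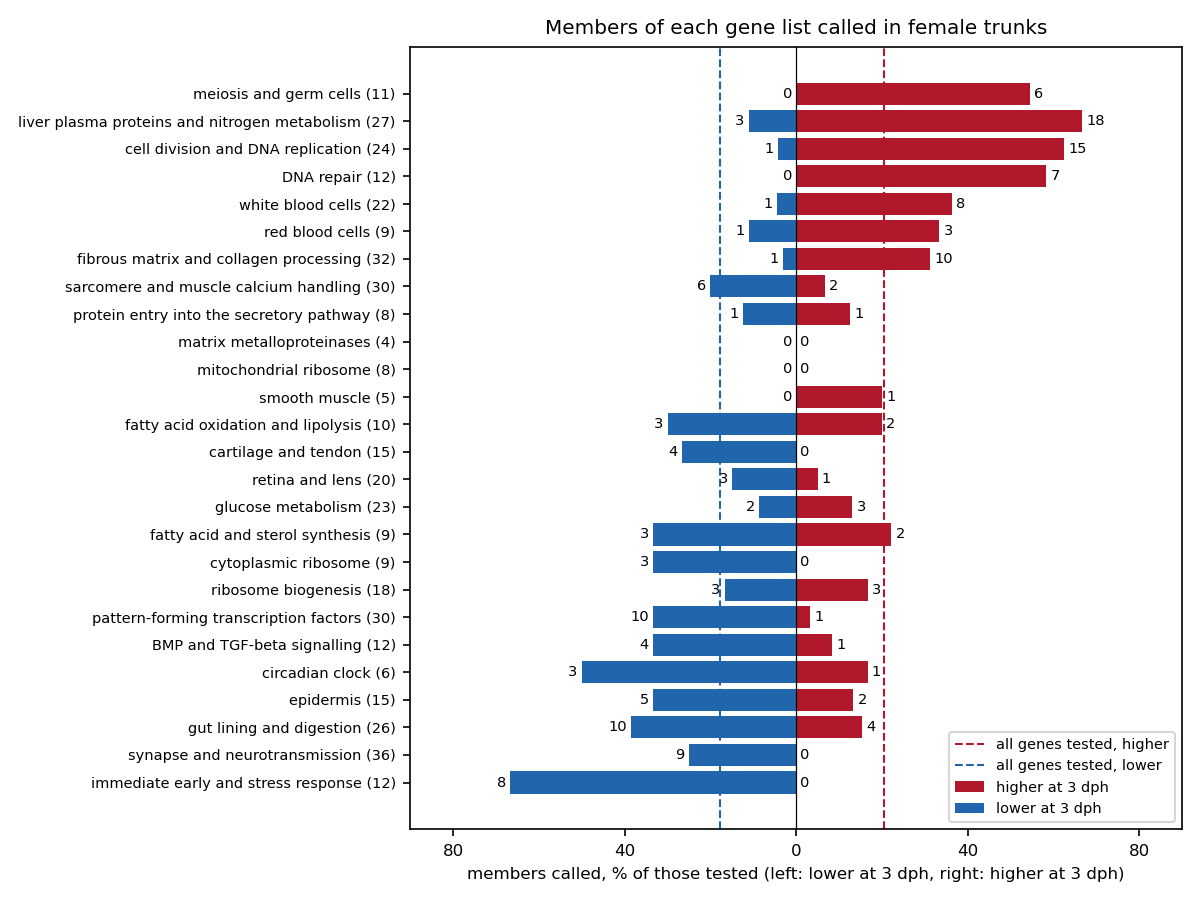
Share of the tested members of each gene list (% of those tested) that rose (right of 0) or fell (left of 0) at 3 dph relative to 0 dph in female trunks, with the number called at each bar, the number tested beside each name and dashed lines at the share of all genes tested. Cell division (15 higher, 1 lower of 24) and liver (18 higher, 3 lower of 27) lie mostly on the right, immediate early genes (0 higher, 8 lower of 12) on the left.

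Most genes of cell division and DNA repair rose. In the cell division list, 15 of 24 tested members were higher and 1 lower at 3 dph, with a median log2 fold change of 1.01 against 0.02 over all genes tested. *KIF20B* (Nfu_g_1_000797), a kinesin of late mitosis, had 1208, 1116 and 1094 counts at 3 dph, against 495 and 488 at 0 dph (1.21 ± 0.14, adjusted p = 2.67e-15). *dscc1* (Nfu_g_1_001721), a subunit of a clamp loader that aids sister chromatid cohesion, had 397, 398 and 426 counts at 3 dph, against 121 and 161 at 0 dph (1.53 ± 0.20, adjusted p = 2.91e-12). *CENPE* (Nfu_g_1_000450), a motor protein of the kinetochore, had 1989, 1891 and 1909 counts at 3 dph, against 566 and 648 at 0 dph (1.67 ± 0.33). The 3 dph libraries of these genes were at least 2-fold above both 0 dph libraries. Replication genes moved by similar amounts, among them *rpa1* (1.53 ± 0.25) for single-stranded DNA binding, *rrm1* (1.49 ± 0.26) for deoxynucleotide synthesis and *prim1* (1.56 ± 0.31) for primase. The exception was *ccnd1* (Nfu_g_1_001696), the G1 cyclin D1, with 187, 164 and 178 counts at 3 dph, against 764 and 704 at 0 dph (−2.06 ± 0.26, adjusted p = 6.82e-13).

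Of 12 DNA repair genes, 7 rose and none fell by DESeq2 or edgeR, and the list median was 0.97. *rad54l* (Nfu_g_1_000802), which acts in homologous recombination, had 548, 506 and 556 counts at 3 dph, against 201 and 104 at 0 dph (1.81 ± 0.26, adjusted p = 7.27e-11). *MDC1* (Nfu_g_1_001246), a scaffold at DNA breaks, had 795, 774 and 814 counts at 3 dph, against 333 and 343 at 0 dph (1.23 ± 0.17, adjusted p = 4.15e-11). Again no 3 dph library reached down to the 0 dph pair. The summed level of the cell division list was 17175 to 17998 normalised counts in 3 dph females, against 8205 and 9534 in 0 dph females. Leaving out any 1 of the 5 libraries moved neither list's count of increases by more than 1.5 times.

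The liver list rose in most of its members, with 18 higher and 3 lower of 27 tested and a median of 1.05. *fabp10a* (Nfu_g_1_010874), the liver fatty acid binding protein, had 25282, 26191 and 29386 counts at 3 dph, against 4039 and 11039 at 0 dph (1.84 ± 0.34, adjusted p = 1.08e-06). The complement genes *masp2* (3.46 ± 0.63), a lectin pathway protease, and *colec11* (1.97 ± 0.35), a collectin, rose with *APCS*, a pentraxin (1.90 ± 0.29). Clotting genes rose less, with 0.92 ± 0.25 for prothrombin (*f2*), 1.05 ± 0.30 for the fibrinogen chain *fgb* and 0.98 ± 0.31 for plasminogen (*plg*). The urea cycle gene *cps1* (Nfu_g_1_003428) had 1180, 968 and 1247 counts at 3 dph, against 578 and 541 at 0 dph (1.02 ± 0.30, adjusted p = 0.00295). The 3 members that fell were *hnf4a*, the RNA editing cofactor gene *a1cf* (−0.97 ± 0.29) and *ftcd* (−0.66 ± 0.23), a histidine-degrading enzyme, and only 1 of these calls was made without replicate 2 at 0 dph, where *a1cf* had a log2 fold change of −0.45 (adjusted p = 0.246). The summed liver level was 104754 to 136894 counts in 3 dph females, against 44119 and 84902 in 0 dph females, so that the second 0 dph library was closer to the 3 dph libraries.

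The gut list changed in both directions, with 4 higher and 10 lower of 26 tested and a median of −0.43. Among those that rose was *ace*, described below after the germ cell genes, whose call was lost without any 1 of the 3 dph libraries. Brush border and transport genes were mainly among those that fell. *MYO7B* (Nfu_g_1_000806, 1 of 2), a myosin of microvilli, had 382, 397 and 356 counts at 3 dph, against 1628 and 2398 at 0 dph (−2.41 ± 0.36, adjusted p = 8.57e-10). *cdh17* (Nfu_g_1_001201) had 204, 127 and 137 counts at 3 dph, against 1276 and 779 at 0 dph (adjusted p = 8.05e-08). The ages did not overlap for either gene. The gut hormone gene *pyya* (−2.43 ± 0.66), the calcium channel gene *trpv6* (−1.03 ± 0.41), the zinc transporter gene *slc39a4* (−1.18 ± 0.43) and both IDs of the folate transporter gene *slc46a1* (−1.26 ± 0.39 and −1.27 ± 0.44) fell as well. In contrast *MEP1B* (Nfu_g_1_001060, 1 of 2), a meprin protease of the brush border, had 216, 250.4 and 295 counts at 3 dph, against 28.8 and 43.1 at 0 dph (2.82 ± 0.47, adjusted p = 6.93e-08).

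Acidic chitinase genes, which digest the shells of small prey, split. The ID Nfu_g_1_001838, named *chia.3*, had 817, 574 and 616 counts at 3 dph, against 168 and 235 at 0 dph (1.73 ± 0.29, adjusted p = 3.58e-08). A second ID with the same name, Nfu_g_1_001861, had 488, 704 and 841 counts at 3 dph, against 2213 and 1626 at 0 dph (−1.50 ± 0.41, adjusted p = 0.00155). One copy was thus lowest and the other highest at 0 dph. *chia.4* rose (1.02 ± 0.31) and *chia.6* fell (−1.54 ± 0.31). These genes are closely related copies between which reads may be divided, and how the counting treated such reads is not given in the sources used here.

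In lipid and sugar metabolism single steps moved in both directions, and the medians were −0.12 for synthesis, 0.04 for oxidation and −0.10 for glucose genes. Sterol and fatty acid synthesis had 2 higher and 3 lower members of 9, with *fasn* (Nfu_g_1_017949), the fatty acid synthase, at 113, 153 and 146 counts at 3 dph, against 81.9 and 64.2 at 0 dph (0.91 ± 0.25, adjusted p = 0.00133, and 0.74 with adjusted p = 0.0553 without replicate 2 at 0 dph). The elongase gene *elovl6l* (Nfu_g_1_000937) fell (−1.76 ± 0.32, adjusted p = 5.59e-07), and so did the acyltransferase gene *agpat9l* (−1.01 ± 0.31, and −0.66 with adjusted p = 0.153 without replicate 2 at 0 dph). Of 10 genes for fatty acid oxidation and lipolysis 2 rose and 3 fell. *ABCD2* (Nfu_g_1_011592, 2 of 2), a peroxisomal transporter, had 15.3, 15.0 and 10.6 counts at 3 dph, against 144 and 99.9 at 0 dph (−3.16 ± 0.61, adjusted p = 3.33e-06). Its 3 dph level was a small part of either 0 dph value. The hormone-sensitive lipase gene *lipeb* (−1.44 ± 0.31) and the peroxisomal carnitine acyltransferase gene *crot* (−1.44 ± 0.35) fell too. The mitochondrial carrier gene *slc25a47a* (2.14 ± 0.51) and *cpt2*, of carnitine-dependent import (0.76 ± 0.27), rose. For *slc25a47a* leaving out 1 female library gave 1.61 to 3.03, highest without replicate 2 at 0 dph. For *cpt2* the value was 0.56 without replicate 1 at 0 dph, and the call was lost without that library or replicate 3 at 3 dph. Of 23 glucose genes, 3 rose and 2 fell.

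Red blood cell genes changed at uneven strength, with a median of 0.54. Of 9 tested, 3 were higher (*hbbe1.1*, *hmbsb* and *hbae1*) and 1 lower (*ANK1*, 2 of 2, not called by edgeR or without any 1 of 4 libraries). *hmbsb* (Nfu_g_1_015429), of heme synthesis, had 2803, 1738 and 2025 counts at 3 dph, against 569 and 772 at 0 dph (1.71 ± 0.42, adjusted p = 0.000293). *hbae1* (Nfu_g_1_007603), an embryonic alpha globin, had 13647, 9966 and 7230 counts at 3 dph, against 1069 and 4673 at 0 dph (1.84 ± 0.57, adjusted p = 0.00521). *hbbe2* (Nfu_g_1_023228), a further beta globin, had 43874, 27320 and 30949 counts at 3 dph, against 2990 and 30251 at 0 dph, and was not called (1.03 ± 0.78, adjusted p = 0.297). Replicate 2 at 0 dph was at the 3 dph level of *hbbe2*, and replicate 1 was far below it. Without replicate 2 the log2 fold changes of *hbbe2* and *hbae1* were 3.51 and 3.26 and 5 of 9 members rose, and without replicate 1 *hbae1* was not called (1.14, adjusted p = 0.131). The summed level of the list was 53140 to 83057 counts at 3 dph, against 6196 and 39276 counts at 0 dph. The summed level thus moved with the same 0 dph library, and its part in these results was not tested. The globins share sequence, and *hbbe1.1* names 2 IDs in the annotation table, of which only Nfu_g_1_007507 was among those called.

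White blood cell genes rose in 8 of 22 tested members and fell in 1, with a median of 0.94. *CFP* (Nfu_g_1_014815, 1 of 2), properdin of the alternative complement pathway, had 516, 519 and 564 counts at 3 dph, against 139 and 131 at 0 dph (1.98 ± 0.31, adjusted p = 6.66e-09). *cxcr3.2* (Nfu_g_1_001089), a chemokine receptor, had 88.1, 105 and 127 counts at 3 dph, against 15.5 and 33.7 at 0 dph (2.11 ± 0.35, adjusted p = 2.79e-08). Leaving out 1 female library gave 1.67 to 2.78, highest without replicate 2 at 0 dph. *NCKAP1L* (Nfu_g_1_021023), a regulator of actin in blood cells, had 157, 169 and 196 counts at 3 dph, against 54.2 and 57.9 at 0 dph (1.63 ± 0.27). No 3 dph value of these genes came near a 0 dph value. *bin2a* (Nfu_g_1_001966), of the membrane-curving proteins of blood cells, went the other way with 319, 261 and 381 counts at 3 dph, against 1370 and 1398 at 0 dph (−2.11 ± 0.32, adjusted p = 1.12e-09). The summed level of the list overlapped between the ages, with 2665 to 3098 counts at 3 dph, against 2639 and 2786 counts at 0 dph.

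**Figure D3:**
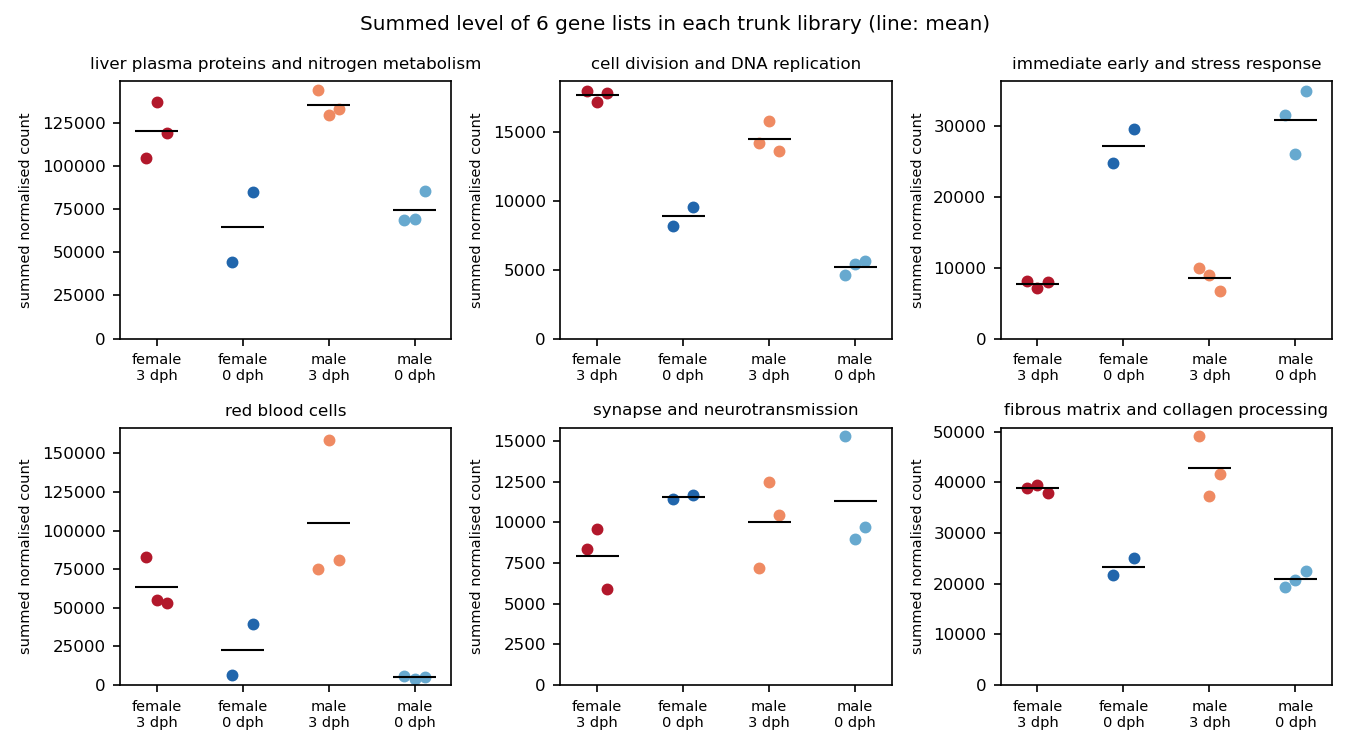
Summed normalised counts of 6 gene lists in each trunk library of females and males at 3 and 0 dph, with a line at the mean of each group. Cell division lies at 17175 to 17998 counts in 3 dph females, above the 8205 and 9534 counts of 0 dph females, and the 0 dph females are far apart for red blood cells.

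The immediate early and stress response list had the lowest median of all lists, −1.57, with 8 of 12 tested members lower and 0 higher at 3 dph by DESeq2 and by edgeR. *IER2* (Nfu_g_1_019499), an immediate early nuclear protein, had 814, 827 and 815 counts at 3 dph, against 4043 and 7022 at 0 dph (−2.76 ± 0.38, adjusted p = 3.54e-11). *nr4a3* (Nfu_g_1_001278), an orphan nuclear receptor induced early by many stimuli, had 78.0, 267 and 121 counts at 3 dph, against 933 and 851 at 0 dph (−2.52 ± 0.39, adjusted p = 5.31e-09). Leaving out 1 female library gave −3.16 to −2.19, with −3.16 without replicate 2 at 3 dph. The 3 dph libraries of *IER2* were nearly equal, and those of *nr4a3* were spread, with replicate 2 the highest. *ZFP36* (−2.05 ± 0.29), a protein that destabilises mRNA, *nr4a1* (−2.13 ± 0.36), *gadd45ab* (−1.77 ± 0.27), *cebpb* (−1.38 ± 0.31) and *hspa8l* (−1.09 ± 0.34) fell as well. The summed level was 7146 to 8186 counts in 3 dph females, against 24838 and 29649 in 0 dph females. Of 6 clock genes, 3 fell, among them the clock output gene *dbpb* (−1.44 ± 0.25, adjusted p = 1.90e-07), and *arntl1b* (Nfu_g_1_001666), a core activator, rose, with 125, 113 and 134 counts at 3 dph, against 68.6 and 47.3 at 0 dph (adjusted p = 0.00593). Without replicate 2 at 0 dph only 1 clock gene fell and none rose (*arntl1b* 0.85, adjusted p = 0.123), and the labels used here give no hour of sampling.

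Matrix and fin fold genes rose in part. Of 32 fibrous matrix genes, 10 were higher and 1 lower, with a median of 0.31, and 6 were higher without replicate 1 at 0 dph. *fkbp10b* (Nfu_g_1_022905), a chaperone of collagen, had 1298, 1247 and 1551 counts at 3 dph, against 425 and 476 at 0 dph (1.60 ± 0.17, adjusted p = 4.99e-18). *fkbp7* (Nfu_g_1_002707), a prolyl isomerase of the endoplasmic reticulum, had 333, 260.1 and 309 counts at 3 dph, against 67.5 and 114 at 0 dph (1.73 ± 0.28, adjusted p = 2.53e-08). Both were well separated by age. The periostin gene *postnb* (1.24 ± 0.45), the microfibril genes *mfap2* (0.88 ± 0.23) and *mfap5* (0.89 ± 0.23) and the collagen-trimming cofactor gene *PCOLCE* (1 of 2; 0.60 ± 0.15) rose too, and the versican gene *vcana* fell (−0.68 ± 0.24, adjusted p = 0.014; its call was lost without any 1 of 4 libraries).

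Some cartilage and patterning genes fell, and the count for cartilage was near the share of all named genes tested (21.1% lower). Of 15 cartilage and tendon genes 4 were lower and none higher by DESeq2, with 3 lower and none higher by edgeR and a median of −0.04. *chad* (Nfu_g_1_000832), chondroadherin of cartilage, had 39.8, 33.8 and 73.2 counts at 3 dph, against 192 and 251 at 0 dph (−2.18 ± 0.35, adjusted p = 9.82e-09). *sox9a* (Nfu_g_1_022861), the cartilage-forming transcription factor, had 369, 372 and 438 counts at 3 dph, against 702 and 694 at 0 dph (−0.83 ± 0.26, adjusted p = 0.00622, and adjusted p = 0.0628 without replicate 1 at 0 dph). For both the ages did not overlap, but the count of 4 dropped to 2 without replicate 1 at 3 dph and to 1 without replicate 1 at 0 dph. Of 30 pattern-forming transcription factors, 10 fell and 1 rose, and 4 and 5 fell without replicate 1 and without replicate 2 at 0 dph. The factor that rose was *tbx4* (Nfu_g_1_000173), of the pelvic fin field, with 142, 145 and 94.3 counts at 3 dph, against 41.0 and 16.8 at 0 dph (2.14 ± 0.40, adjusted p = 1.44e-06). Leaving out 1 female library gave 1.63 to 2.92, highest without replicate 1 at 0 dph. *pitx1* (Nfu_g_1_005114), which acts upstream of *tbx4* in hindlimbs of mice, had 119, 124 and 119.9 counts at 3 dph, against 520.3 and 201 at 0 dph (−1.57 ± 0.39, adjusted p = 0.000352). The high value of replicate 1 at 0 dph carried this call, and without it the log2 fold change was −0.73 (adjusted p = 0.144).

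In the signalling list of the TGF-beta superfamily, to which the sex-determining ligand of this species belongs, 4 of 12 tested members fell and 1 rose. The ligand genes *bmp2b* and *bmp7b* were low in every library. *bmp2b* (Nfu_g_1_000575) had 3.39, 9.77 and 3.53 counts at 3 dph, against 46.5 and 32.6 at 0 dph (−2.80 ± 0.53, adjusted p = 1.69e-06). Leaving out 1 female library gave −3.51 to −2.52, with −3.51 without replicate 2 at 3 dph. *bmp7b* (Nfu_g_1_001606) had 31.4, 26.3 and 30.9 counts at 3 dph, against 109.6 and 70.5 at 0 dph (−1.61 ± 0.39, adjusted p = 0.000245). Of the target genes that BMP signals induce in many tissues, *id1* (Nfu_g_1_021185) had 774, 673 and 898 counts at 3 dph, against 989 and 1330 at 0 dph (−0.57 ± 0.22, adjusted p = 0.027). That call was lost without replicate 1 or 2 at 3 dph or replicate 2 at 0 dph, where the log2 fold change was −0.34 (adjusted p = 0.322). *id3* (Nfu_g_1_015039), with 1205, 1198 and 1502 counts at 3 dph, against 1235 and 1950 at 0 dph, and *smad9* (Nfu_g_1_001408), the receptor-regulated SMAD, with 10.2, 10.5 and 11.5 counts at 3 dph, against 19.9 and 17.9 at 0 dph, were not called.

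Nerve, muscle, skin and ribosome genes gave smaller or less stable counts. Of 36 synapse genes 9 fell and none rose, with a median of −0.90, but without replicate 1 at 0 dph none fell and without replicate 2 at 3 dph 16 did. *snap25a* (Nfu_g_1_017443), of synaptic vesicle fusion, had 391, 367 and 155 counts at 3 dph, against 965 and 848 at 0 dph (−1.57 ± 0.46, adjusted p = 0.00296). Replicate 3 was the lowest 3 dph library for this gene and for the summed list, at 5886 to 9598 counts at 3 dph, against 11409 and 11706 counts at 0 dph. Of 30 sarcomere genes 2 rose and 6 fell, although the median was 0.24, and 7 rose and 2 fell without replicate 2 at 0 dph. The ubiquitin ligase gene *fbxo32* (Nfu_g_1_001708), known from muscle wasting in mammals, had 1327, 1801 and 2442 counts at 3 dph, against 760.5 and 584 at 0 dph (1.47 ± 0.37, adjusted p = 0.00058). The heart myosin gene *vmhc* (Nfu_g_1_020456) had 310.2, 453 and 290.1 counts at 3 dph, against 770.5 and 719 at 0 dph (−1.08 ± 0.24, adjusted p = 5.83e-05). Neither gene overlapped between the ages. Of 15 epidermal genes 2 rose and 5 fell (none and 5 by edgeR), with a median of −0.35. The basal keratin gene *krt5* (Nfu_g_1_001437) took 1.16%, 1.04% and 1.21% of 3 dph libraries, against 0.529% and 0.637% of 0 dph libraries (1.21 ± 0.44, adjusted p = 0.0198; 1.03 with adjusted p = 0.17 without replicate 1 at 0 dph, and not called without replicate 1 or 3 at 3 dph), while *krt18* (Nfu_g_1_001656), a keratin of simple epithelia, had 2947, 2736 and 3039 counts at 3 dph, against 14323 and 13419 at 0 dph (−2.25 ± 0.43, adjusted p = 2.46e-06). Of 9 cytoplasmic ribosomal protein genes 3 fell and none rose, with the lowest adjusted p for *rpl5b* (−0.55 ± 0.14, adjusted p = 0.000909), and 1 fell without replicate 2 at 3 dph or replicate 2 at 0 dph. When libraries were scaled by totals, 8 of these 9 fell. Smooth muscle (1 of 5 higher), secretory pathway entry (1 higher and 1 lower of 8), retina and lens (1 higher and 3 lower of 20), matrix metalloproteinases (none called of 4) and mitochondrial ribosome (none called of 8, and 1 higher at an unadjusted p under 0.05) had few calls. Where a list had no call in a direction, edgeR also called none, and the number at an unadjusted p under 0.05 in that direction was 0 for immediate early genes (higher), DNA repair (lower) and cytoplasmic ribosome (higher), 1 for germ cells (lower) and synapse (higher), 2 for cartilage and tendon (higher), and 0 in both directions for matrix metalloproteinases.

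Genes of germ cells and meiosis rose in part, and their 0 dph libraries were far apart. Of 11 tested members 6 rose and none fell by DESeq2 (5 and none by edgeR), with a median of 1.12, and 3 rose without replicate 2 at 0 dph. *pabpc1l* (Nfu_g_1_001543), the poly(A)-binding protein that oocytes use, had 2498, 2770 and 3410 counts at 3 dph, against 1157 and 189 at 0 dph, which is a mean of 2893 ± 468 at 3 dph, against 673 ± 684 at 0 dph (SD, n = 3 and 2, adjusted p = 0.000561 by DESeq2). *taf4b* (Nfu_g_1_000882), a germ cell subunit of a general transcription factor, had 258, 253 and 314 counts at 3 dph, against 129.5 and 21.0 at 0 dph (1.87 ± 0.55, adjusted p = 0.00303). *tdrd6* (Nfu_g_1_000089), a Tudor protein of germ granules, had 1283, 1362 and 1566 counts at 3 dph, against 871 and 303 at 0 dph (1.26 ± 0.46, adjusted p = 0.0197). In each of them the 3 dph libraries were highest and close together, replicate 1 at 0 dph was lower, and replicate 2 at 0 dph was lower again. Without replicate 1 at 0 dph the log2 fold change was 3.94 for *pabpc1l* and 3.71 for *taf4b*, and without replicate 2 it was 1.32 and 1.08, all 4 values still called.

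*brdt* (Nfu_g_1_000900), a bromodomain protein of meiotic cells, had 515, 536 and 619.9 counts at 3 dph, against 269 and 105 at 0 dph (1.57 ± 0.43, adjusted p = 0.00147). With 1 female library left out its log2 fold change was 1.05 to 2.41, highest without replicate 1 at 0 dph. *sybu* (Nfu_g_1_016781), which in zebrafish oocytes encodes a linker of cargo to microtubule motors, had 1344, 1297 and 1514 counts at 3 dph, against 794 and 482 at 0 dph (1.12 ± 0.32, adjusted p = 0.00272, and 0.80 with adjusted p = 0.0865 without replicate 2 at 0 dph). *mei4* (Nfu_g_1_000109), needed for meiotic DNA breaks in mice, was at 21.2, 106 and 17.6 counts at 3 dph, against 7.75 and 6.31 at 0 dph (2.78 ± 0.91, adjusted p = 0.00877). Here replicate 2 at 3 dph stood alone, and the other libraries were near the limit of counting. In contrast *rec8* (Nfu_g_1_001081), the meiotic cohesin, was lower at 3 dph, with 209, 177 and 93.5 counts at 3 dph, against 245 and 339 at 0 dph, a difference that missed the threshold (−0.87 ± 0.37, adjusted p = 0.0533). The ages did not overlap for *rec8*, and it was called lower without replicate 1 at 3 dph (adjusted p = 0.0271), with TMM factors, with library totals and with the 5 female libraries alone (2 list members lower). It was not called by edgeR or with the replicate block, and its adjusted p lay between 0.0177 and 0.350 over all alternatives.

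*ace* (Nfu_g_1_017409), angiotensin-converting enzyme and a member of the gut list, followed the same order of libraries, with 6819, 8405 and 10367 counts at 3 dph, against 2097 and 35.8 at 0 dph (3.00 ± 1.14, adjusted p = 0.0261). It was called without replicate 1 at 0 dph at 7.90 and without replicate 2 at 2.02, and was not called without replicate 1, 2 or 3 at 3 dph (adjusted p = 0.0551, 0.0652 and 0.0907). Nfu_g_1_019088, 1 of the 10 most abundant genes at 3 dph, had 195431, 260554 and 397803 counts at 3 dph, against 82093 and 889.9 at 0 dph, and was not called in the full comparison (2.78 ± 1.21, adjusted p = 0.0556) but was called without either 0 dph library (8.33 without replicate 1, 1.79 without replicate 2). A second ID named *krt5*, Nfu_g_1_000844, had 22797, 28953 and 35782 counts at 3 dph, against 8103 and 81.0 at 0 dph, and was not called. The male trunks had 35.9, 39.6 and 35.9 counts of *ace* at 3 dph, against 12.1, 38.4 and 32.1 at 0 dph, and at most 375 counts of Nfu_g_1_019088 and 44.4 counts of this *krt5* ID. All 3 genes were thus at least 2-fold above every male library in the 3 dph females and in replicate 1 at 0 dph. Replicate 2 at 0 dph lay within the male range for *ace* and for *taf4b* (21.0 counts, against 10.4 to 29.4 in males). Its *rec8* level (339 counts) was above every male library, at 7.94 to 18.9 counts. This library was also above every male library for *pabpc1l* (189 counts, against at most 100.3), *tdrd6* (303, against 211) and *brdt* (105, against 76.2). The same held for *sybu* (482, against 386), Nfu_g_1_019088 (889.9, against 375) and the second *krt5* ID (81.0, against 44.4). On the first principal component of the 11 trunks replicate 2 lay at −37.4. Male libraries lay at −16.6 to −13.1 (3 dph) and −65.2 to −59.4 (0 dph), and replicate 1 at 29.9. What set the 2 libraries apart was not tested.

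**Figure D4:**
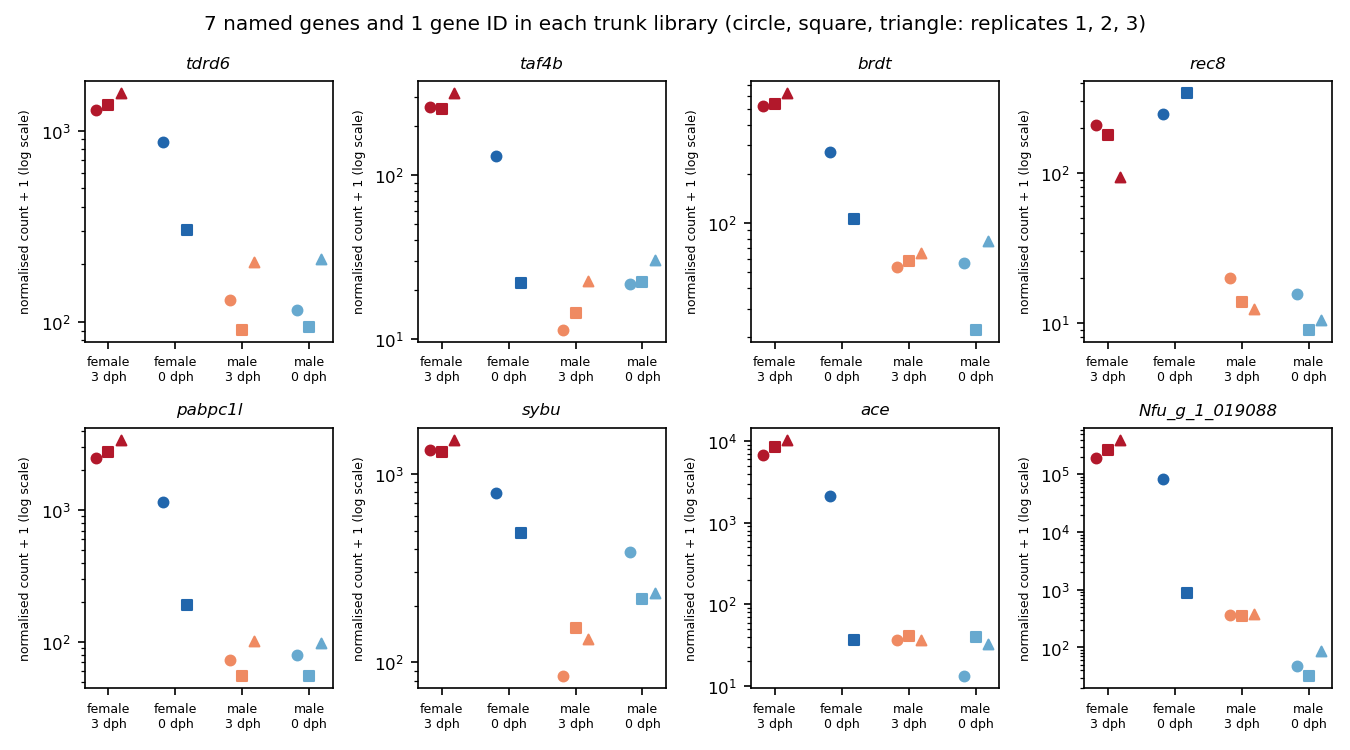
Normalised counts plus 1 (log scale) of 7 named genes and 1 gene ID in each trunk library of females and males at 3 and 0 dph, with a symbol for each replicate number. For *pabpc1l* the 3 dph females have 2498 to 3410 counts, replicate 1 of the 0 dph females 1157 and replicate 2 189.

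That order was not limited to a few genes. On counts plus 1, and over the 21242 genes with at least 10 counts in the pair, replicate 1 at 0 dph was at least 8-fold above replicate 2 for 216 genes, and replicate 2 at least 8-fold above replicate 1 for 34. At a 2-fold cut-off the directions were less unequal, with 1406 genes higher in replicate 1 and 1041 higher in replicate 2. Of those 1406 genes 374 were called higher and 261 lower at 3 dph, and of those 1041 genes 215 and 140. These counts stand beside 20.4% higher and 17.7% lower of all genes tested. In 162 of the 216 genes the 3 dph mean was higher still than replicate 1. In 163 of them (75.5%) the female 3 dph mean was at least 2-fold above the male 3 dph mean, against 6.03% of all genes compared. The 216 genes were chosen on the 0 dph values, so that these shares are a description.

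Lastly the female change was set against the male change between the same ages. In males 21.9% of the 22945 genes tested were called higher and 22.3% lower at 3 dph, and male list counts are to be read against these shares. Of 20974 genes tested, 1830 (8.73%) changed by different amounts in females and males (sex-by-age interaction, DESeq2), 1310 (6.25%) with the more positive change in females and 520 (2.48%) with the more negative one. edgeR called 887.

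**Figure D5:**
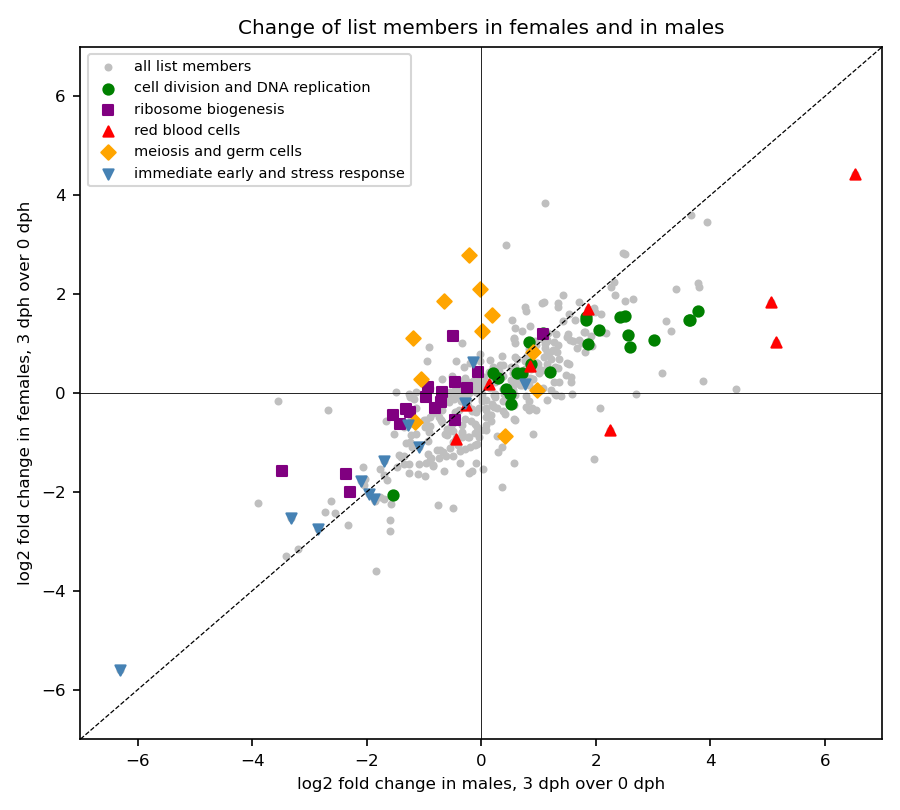
Log2 fold change of each list member between 3 and 0 dph in females (vertical) and in males (horizontal), with 5 lists in colour, the other lists in grey and a dashed line where both are equal. Immediate early genes lie mostly low in both sexes, cell division genes mostly high in both and below the diagonal, and germ cell genes mostly above it.

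The lists differed in how many members departed from the male change. In the cell division list 8 of 24 members had a more negative change in females than in males and none a more positive one. Among these, *dscc1* was not called without replicate 2 at 0 dph or without any 1 of the 3 dph females. *suv39h1b* (Nfu_g_1_001883), a histone methyltransferase of heterochromatin, had 627, 557 and 561 counts at 3 dph, against 139 and 277 at 0 dph in females, and 628, 920.2 and 629 counts at 3 dph, against 46.0, 52.9 and 76.2 at 0 dph in males (female minus male log2 change −2.16 ± 0.43, adjusted p = 4.95e-05). The sexes were close at 3 dph and the females were higher at hatching. Ribosome biogenesis genes differed the other way, with 3 of 18 higher and 3 lower in females against 1 higher and 13 lower in males, and 8 of 18 with a more positive change in females. The female counts were near the shares of all named genes tested (17.1% higher and 21.1% lower). In males 21.9% of all genes tested were higher and 22.3% lower. With library totals the female count was 2 higher and 9 lower. *ddx10* (Nfu_g_1_000961), an RNA helicase of that process, had 219, 174 and 179.9 counts at 3 dph, against 813 and 323 at 0 dph in females (−1.57 ± 0.43, and −0.76 with adjusted p = 0.223 without replicate 1 at 0 dph), and 109, 77.7 and 94.6 counts at 3 dph, against 546, 1485 and 1084 at 0 dph in males (−3.47 ± 0.39). The female minus male difference was 1.90 ± 0.57 (adjusted p = 0.0165) and was not called without replicate 2 at 0 dph or replicate 1 at 3 dph.

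The sterol pathway gene *fdps* rose by more in females than in males. It had 2879, 3444 and 3022 counts at 3 dph, against 1135, 1728 and 1459 at 0 dph in males (1.11 ± 0.28), with the females lower than the males at hatching (female minus male 2.74 ± 0.42, adjusted p = 2.74e-08). *elovl6l* (Nfu_g_1_009921), a fatty acid elongase, had 943, 786 and 1204 counts at 3 dph, against 1276 and 919 at 0 dph in females and was not called (−0.17 ± 0.31), while males had 121, 53.8 and 86.1 counts at 3 dph, against 1167, 949 and 932 at 0 dph (−3.55 ± 0.29). Here the sexes were alike at hatching and the males fell (female minus male 3.39 ± 0.42, adjusted p = 1.26e-12). *hspa13*, an endoplasmic reticulum chaperone of the HSP70 family, fell less in females (−1.49 ± 0.29) than in males (−3.90 ± 0.27, female minus male 2.41 ± 0.40, adjusted p = 3.35e-07). *srpr*, a receptor for the signal recognition particle, did so too (−0.56 ± 0.18 in females, −1.67 ± 0.16 in males, female minus male 1.11 ± 0.24, adjusted p = 0.000239). Without replicate 1 at 0 dph the female decrease of *srpr* was not called (−0.44, adjusted p = 0.147).

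In the germ cell list, 6 of 11 members rose in females, against 1 higher and 2 lower in males, and 3 had a more positive change in females. Over all genes tested in males 21.9% were higher and 22.3% lower, so that the male counts show no excess of calls. *pabpc1l* had 72.7, 53.8 and 100.3 counts at 3 dph, against 78.6, 54.3 and 97.6 at 0 dph in males (−0.03 ± 0.50), and the female minus male change was 2.13 ± 0.73 (adjusted p = 0.0437). This difference was not called without any 1 of the 3 dph females. *sybu* had 83.0, 150.1 and 132 counts at 3 dph, against 386, 214 and 233 at 0 dph in males (−1.19 ± 0.30), a fall where the females rose (female minus male 2.31 ± 0.44, adjusted p = 1.79e-05). The cation exchanger gene *slc24a4b* (Nfu_g_1_018737), with 958, 926 and 1038 counts at 3 dph, against 393 and 127 at 0 dph in females, had 46.2, 118 and 92.7 counts at 3 dph, against 167, 91.3 and 131 at 0 dph in males (female minus male 2.50 ± 0.61, adjusted p = 0.00162). Its 3 dph females were far above every other library.

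The negative side was led by globins, the gluconeogenesis gene *fbp1a* and *hmga1b*. *hbbe2* had 35977, 81435 and 45262 counts at 3 dph, against 2279, 669.6 and 1622 at 0 dph in males, and the female minus male change was −4.12 ± 1.04 (adjusted p = 0.00241). *fbp1a* (Nfu_g_1_017321) had 3769, 2760 and 2054 counts at 3 dph, against 1193 and 4618 at 0 dph in females, and 5029, 2414 and 4345 counts at 3 dph, against 312, 1020 and 483 at 0 dph in males (female minus male −2.72 ± 0.74, adjusted p = 0.00614). For both, replicate 2 at 0 dph was the highest hatching library, and without it the differences were −1.64 (adjusted p = 0.173) and −1.43 (adjusted p = 0.263). *hmga1b* (Nfu_g_1_002244), an architectural chromatin protein, had 3083, 3364 and 4376 counts at 3 dph, against 13597 and 18272 at 0 dph in females, whereas males had 4406, 4137 and 7963 counts at 3 dph, against 3245, 9355 and 2919 at 0 dph (female minus male −2.23 ± 0.62, adjusted p = 0.00693, and adjusted p = 0.0752 without replicate 2 at 0 dph). Both 0 dph females were above all 9 other trunk libraries of this gene.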

How the data were processed

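RNA was extracted from trunks of GRZ *N. furzeri* with QIAzol, and libraries were made with the TruSeq RNA Sample Prep Kit v2, which does not mark strand, and sequenced on a HiSeq 2500. The authors converted reads with bcl2fastq 1.8.4, filtered them, aligned them by STAR against a reference genome of the species and counted reads per gene with summarizeOverlaps, and deposited raw counts of 26740 genes in 19 libraries. The assembly version and the counting mode are not given in the sources used here, so no coordinates are given, and overlapping or antisense genes and close paralogs may share reads. All 19 columns matched a sample by its labels, and 0 columns were left unmapped.

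The counts were fitted with DESeq2 1.42.0 in R 4.3.3 on the 11 trunk libraries, with 1 coefficient for each group of sex and age, over genes with at least 1 count. Wald tests gave the change in females, the change in males and their difference, with Benjamini-Hochberg adjustment over all genes tested. The procedure was tested on simulated data. There the share of false calls was above the nominal rate for DESeq2 and below it for edgeR. Both tools missed a large part of the 2-fold changes, edgeR more than DESeq2, and edgeR also missed more of the larger changes. edgeR 4.0.16 was an alternative, as were TMM factors, library totals, the 5 female libraries alone, a minimum of 10 counts, no independent filtering, a 2-fold minimum, a replicate block, 3 dph libraries thinned to the 0 dph depth, and leaving out each female library.

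Gene symbols come from an annotation table of the study (its genebuild annotation), of which 2830 IDs were at hand and 2280 carried a gene name, and other IDs are not named here. Of these IDs, 831 were at hand only through a list ranked by a sex comparison at an embryonic stage. The gene lists were drawn from these names, and members and lists were chosen with earlier results of these data known. Genes were named by rule. The rule took, among called genes with a mean of at least 100 normalised counts and no overlap between ages, the 10 largest increases and decreases with a gene name and the 2 of any ID. It also took, per list, the 2 called members with the lowest adjusted p in each direction, 5 genes discussed by the study, the 5 largest differences between the sexes in each direction and the 10 most abundant IDs. Of the genes the rule took, 2 are not reported here. Other list members named with values, *tdrd6*, the second *krt5* ID and the comparison of the 0 dph libraries were chosen after their values were seen.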

Additional observations from a re-analysis of the deposited data

Results flagged for a closer look

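The following values are singled out because the change between 3 and 0 dph differed between females and males by the sex-by-age interaction (DESeq2, adjusted p < 0.05). All are female minus male log2 changes. In all, 1830 of 20974 genes did so, and edgeR called 887. A more positive change in females was found for *elovl6l* (Nfu_g_1_009921) at 3.39, *fdps* at 2.74, Nfu_g_1_013138 at 2.67, *taf4b* at 2.51, *slc24a4b* at 2.50, *hspa13* at 2.41, *sybu* at 2.31, *pabpc1l* at 2.13, *ddx10* at 1.90, *rpp38*, of RNase P, at 1.64 and *srpr* at 1.11. A more negative change was found for *hbbe2* at −4.12, *hbae1* at −3.23, *fbp1a* at −2.72, *hmga1b* at −2.23, *suv39h1b* at −2.16, *hbbe1.1* at −2.10, *vmhc* at −1.44 and *dscc1* at −0.89.

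Of these 19 differences, edgeR did not call 9 and the replicate block did not call 7. Several rest on 1 female library. Without replicate 2 at 0 dph the call was lost for *hbbe2* (−1.64), *hbae1* (−1.80), *fbp1a* (−1.43), *hbbe1.1* (−1.50), *ddx10* (1.39), *rpp38* (1.38), *dscc1* (−0.67) and *hmga1b*. Without replicate 1 at 0 dph the values were larger for *taf4b* (4.36), *pabpc1l* (3.97), *slc24a4b* (3.54) and *ddx10* (2.72). Leaving out a 3 dph library lost the call of *pabpc1l* (replicate 1, 2 or 3), *dscc1* (replicate 1, 2 or 3), *rpp38* (replicate 1 or 3), *hbbe1.1* (replicate 2 or 3), *ddx10* (replicate 1) and *taf4b* (replicate 3). The part of the 0 dph female libraries, which differ in globin and germ cell RNA, was not tested. No value reversed its sign under any alternative run.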

How the results depend on the processing

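The number of genes that differed between 3 and 0 dph females (8549) lay between 7989 and 8868 with TMM factors, with the 5 female libraries alone, with at least 10 counts, without independent filtering, with library totals or with 3 dph libraries thinned to the 0 dph depth, and edgeR called 7988. Library totals gave 2864 higher and 5738 lower genes, and 671 more positive and 845 more negative differences between the sexes. A 2-fold minimum gave 4813 genes (2333 higher, 2480 lower) and 1180 differences between the sexes (791 more positive, 389 more negative). edgeR gave 887 differences between the sexes (652 more positive, 235 more negative). Leaving out 1 female library gave 5452 to 7292 genes (3147 to 4086 higher, 2305 to 3344 lower) and 1106 to 2465 differences between the sexes (800 to 1638 more positive, 306 to 827 more negative), with 5452 genes without replicate 1 at 0 dph, 7130 without replicate 2 at 0 dph, and 6736, 7292 and 6397 without replicates 1, 2 and 3 at 3 dph.

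The deviations of same-numbered female libraries had correlations of 0.042 and −0.071. With 2 libraries at 0 dph the deviations of the pair are mirror images, so that this check cannot settle whether the numbers pair libraries. With the replicate block, 4537 genes were called (2483 higher, 2054 lower), 4457 of them shared, and 588 differences between the sexes (422 more positive, 166 more negative).

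Of 111 genes taken by the naming rule, no called gene changed sign. edgeR lost the call of 5, library totals of 11 a 2-fold minimum of 20 and the replicate block of 23. Without replicate 1 or 2 at 0 dph 16 and 14 calls were lost, and without replicate 1, 2 or 3 at 3 dph 7, 6 and 9. With 2 libraries at 0 dph, the hatching level of genes that differ between them is the least certain value, and a lone 0 dph library was assumed to vary like the other groups.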

Other observations

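Outside the trunk comparison, several genes that followed the order of the female libraries had these CPM values (counts scaled to the library total) in the 1 ovary and 1 testis library at 3 months, which have no replicate. Nfu_g_1_019088 had 20285 CPM in the ovary, against 62.5 CPM in the testis. *ace* had 2609 CPM in the ovary, against 4.69 CPM in the testis. *sybu* had 585 CPM in the ovary, against 1.62 CPM in the testis. *pabpc1l* was at a like level in both, with 385 CPM in the ovary, against 334 CPM in the testis, and *brdt* was lower in the ovary, at 78.6 CPM, against 713 CPM in the testis. *taf4b* was also at a like level, with 52.4 CPM in the ovary, against 49.2 CPM in the testis. *tdrd6* was lower in the ovary, at 168 CPM, against 569 CPM in the testis. *rec8*, which had lower values at 3 dph than at hatching in the female trunks, had 1.74 CPM in the ovary, against 0.597 CPM in the testis. In the 3 dph female trunks Nfu_g_1_019088 had 8031, 11898 and 15127 CPM, against 4240 and 41.8 CPM at 0 dph.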
